A study of Mus musculus with 16 samples.

Results

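The 6 loci described here hold genes of the RANK, CD40 and NF-kB pathway in medullary thymic epithelial cells (mTECs) of the mouse. They are Tnfrsf11a and Cd40, which encode the receptors RANK and CD40, Tnfrsf11b, which encodes the decoy receptor osteoprotegerin, Relb and Nfkb2, which encode NF-kB subunits, and Nfkbia, which encodes an NF-kB inhibitor. The genes and windows were chosen with earlier results of these data known. Within them no measured value was used: members are the accessible regions lying wholly within 1 of 6 windows of mm9, of 140 to 200 kb each and 1040 kb in all. This gave 272 of the 250313 regions in the table, each 500 bp long. The Tnfrsf11a window held 50, the Tnfrsf11b window 26, the Cd40 window 33, the Relb window 41, the Nfkb2 window 50 and the Nfkbia window 72. Regions are numbered within each window in the order of their coordinates.

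The measurements were ATAC-seq, in which Tn5 transposase inserts adapters into open chromatin, on mTECs sorted from thymi of 4-week-old C57BL/6 mice. Cells were negative for DAPI and CD45, positive for EpCAM and UEA, with Ly51 at a low level, and the MHC class II level separated mTEChi (high) from mTEClo (low), with 60000 cells per reaction. The 8 groups of 2 libraries each were Aire-/- and Aire+/+ mTEChi, Brg1-/- and Brg1+/+ mTEChi, Aire-/- and Aire+/+ mTEClo, and Brg1-/- and Brg1+/+ mTEClo. Aire-/- mice lack Aire, the nuclear regulator that lets mTECs transcribe genes of peripheral tissues, and Brg1 is a catalytic subunit of SWI/SNF chromatin remodelers. The Brg1+/+ libraries carry NOCRE in their description, so the Brg1 groups may also differ in the presence of a Cre. The driver of that Cre and the target exons are not given in the sources used here. Nor do the labels state that both libraries of each group stem from different animals, so p-values measure the spread between libraries, which may be technical. The identity of the cells rests on the sort and the labels: accessibility at cell type marker genes was not analysed here, because the gene tables at hand belong to another build.

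RANK and CD40 are members of the TNF receptor superfamily, and their ligands reach mTECs from lymphoid cells of the thymus. Both receptors signal through TRAF adaptors and the kinase NIK to processing of the Nfkb2 product p100 into p52, which enters the nucleus with RelB, and this branch of NF-kB signalling is known to be needed for a normal medulla and for Aire-expressing mTECs. Osteoprotegerin binds the RANK ligand and keeps it from RANK, and the Nfkbia product IkBa holds NF-kB dimers of the other branch in the cytoplasm and is itself a target of NF-kB.

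Promoter sequences were at hand for 3 of the 6 genes, from RefSeq on GRCm38.p6, and are shown because Nfkb2 and Nfkbia are textbook targets of the factors they encode or restrain. Each runs 5′ to 3′ over 300 bases, of which 250 lie before the start of transcription and 50 after it. Capitals mark matches to the NF-kB consensus, a motif of 10 letters searched on both strands. The first Nfkb2 start lies at chr19:46304487-46304786 on the plus strand, the second at chr19:46305445-46305744 on the plus strand, Nfkbia at chr12:55492598-55492897 on the minus strand and Tnfrsf11a at chr1:105780473-105780772 on the plus strand. These positions belong to GRCm38.p6 and cannot be set against the mm9 positions of the accessible regions.
Nfkb2 start 1: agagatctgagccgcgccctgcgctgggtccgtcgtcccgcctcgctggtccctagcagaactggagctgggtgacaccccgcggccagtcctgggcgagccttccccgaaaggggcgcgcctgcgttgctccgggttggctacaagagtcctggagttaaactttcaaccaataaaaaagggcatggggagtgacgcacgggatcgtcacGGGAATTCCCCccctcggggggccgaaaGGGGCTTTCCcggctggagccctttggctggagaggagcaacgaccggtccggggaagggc
Nfkb2 start 2: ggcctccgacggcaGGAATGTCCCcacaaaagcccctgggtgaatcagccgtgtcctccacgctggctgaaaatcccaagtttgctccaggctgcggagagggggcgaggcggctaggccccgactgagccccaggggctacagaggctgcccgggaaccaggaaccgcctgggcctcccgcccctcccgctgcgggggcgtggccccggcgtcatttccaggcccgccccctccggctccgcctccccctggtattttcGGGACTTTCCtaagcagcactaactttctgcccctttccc
Nfkbia start 1: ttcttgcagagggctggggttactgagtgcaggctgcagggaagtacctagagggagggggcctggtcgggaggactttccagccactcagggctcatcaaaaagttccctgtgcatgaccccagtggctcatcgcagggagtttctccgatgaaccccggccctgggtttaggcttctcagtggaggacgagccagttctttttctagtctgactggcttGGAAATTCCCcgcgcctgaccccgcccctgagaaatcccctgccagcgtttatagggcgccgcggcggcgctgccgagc
Tnfrsf11a start 1: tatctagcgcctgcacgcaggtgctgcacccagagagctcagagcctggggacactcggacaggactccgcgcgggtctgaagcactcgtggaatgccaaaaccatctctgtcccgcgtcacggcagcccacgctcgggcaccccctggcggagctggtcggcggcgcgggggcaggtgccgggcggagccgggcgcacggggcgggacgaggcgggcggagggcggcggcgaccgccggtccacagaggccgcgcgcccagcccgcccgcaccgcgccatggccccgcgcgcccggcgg
The first Nfkb2 promoter held 4 matches, which together cover 21 bases at 2 separate places. Bases 212 to 221 matched on both strands and bases 213 to 222 on the minus strand, while bases 240 to 249 stand apart. The second Nfkb2 promoter held 2 matches, and the Nfkbia promoter held 1. Another annotated start of Nfkb2 overlaps the second and held 1 of the same matches. No match stood in the Tnfrsf11a window of 300 bases, which is 76.7% G and C. Of the 32851 promoters searched, 4.51% held at least 1 match and 0.24% held at least 3, with matches on each strand counted separately. The search, and the share of genes given next, left out 1 chromosome of the table. Among 23 other genes of the pathway, 20 had a promoter in the table and 6 of these had a match, Bcl3, Ltb, Nfkbie, Rel, Tnfaip3 and Traf3, against 5.14% of 27025 genes. These matches describe letters and show no binding.

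Levels are given as the deposited signal, a value per region and library on the authors' scale. Median signal over all regions ranged between 8.51 and 19.8 among the 16 libraries while the 99th percentile was nearly fixed, at 213.7 to 217.3. Depth is unknown because the values are not counts, so no counting interval can be given. The 2 Aire+/+ mTEChi libraries agreed least with each other at the 272 regions, with a Pearson correlation of log2 signal of 0.631, against 0.7 to 0.848 in the other 7 groups. A value of 0 was listed for a member in 8 cases, in 1 library each of Aire+/+ mTEChi, Aire-/- mTEClo and Aire+/+ mTEClo. Over all regions those libraries held 2745 to 4039 zeros and the others none, so the smallest values of the others are above 0. In Brg1+/+ mTEClo, Tnfrsf11b region 10 and Cd40 region 9 were both listed at 0.37 and 0.62, as at a floor. Tests were made with limma on log2(signal + 1) over all 225281 regions with a mean signal of at least 7.48, among them 257 of the 272 members. Calls were made two-sided, where the p-value with Benjamini-Hochberg adjustment over all regions tested was below 0.05, and fold changes are on the log2(signal + 1) scale, which understates the change of low regions.

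The clearest difference at these loci lay between the sorts. Over the 4 genotypes, 121 of 257 member regions were called, 47.1%, against 37.7% of all regions tested. Of these, 106 rose in mTEChi relative to mTEClo and 15 fell, 41.2% and 5.84%, against 27.1% and 10.6% of all regions tested. The median log2 difference was 0.60 over the members, against 0.33 over all regions tested. Split at the median mean signal of 15.5, 46.8% of 158 stronger members and 32.3% of 99 weaker members rose, against 33.8% and 20.5% of all regions in the same classes. A higher signal can come from more cells with the region open or from more open chromatin per cell, and these cannot be told apart in bulk libraries.

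The counts depend on how the libraries are scaled. Median signal over all regions was 11.8 to 19.8 in the 8 mTEChi libraries and 8.51 to 13.8 in the 8 mTEClo libraries. Quantile normalization moved the median log2 difference of all regions tested to -0.02, and cyclic loess moved it to 0.01. With quantile normalization 74 members rose and 21 fell, against 16.6% higher and 17.5% lower among all regions tested, and with cyclic loess 79 rose and 21 fell, against 17.2% and 15.9%. The median over members was then 0.28 with quantile normalization and 0.35 with cyclic loess. In the order Tnfrsf11a, Tnfrsf11b, Cd40, Relb, Nfkb2 and Nfkbia, the share that rose was 18%, 32%, 35.7%, 27%, 19.6% and 39.4% with quantile normalization. With cyclic loess it was 18%, 32%, 42.9%, 27%, 23.9% and 40.8%. The share that fell was 14%, 28%, 0%, 8.11%, 0% and 5.63% with either.

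**Figure D1:**
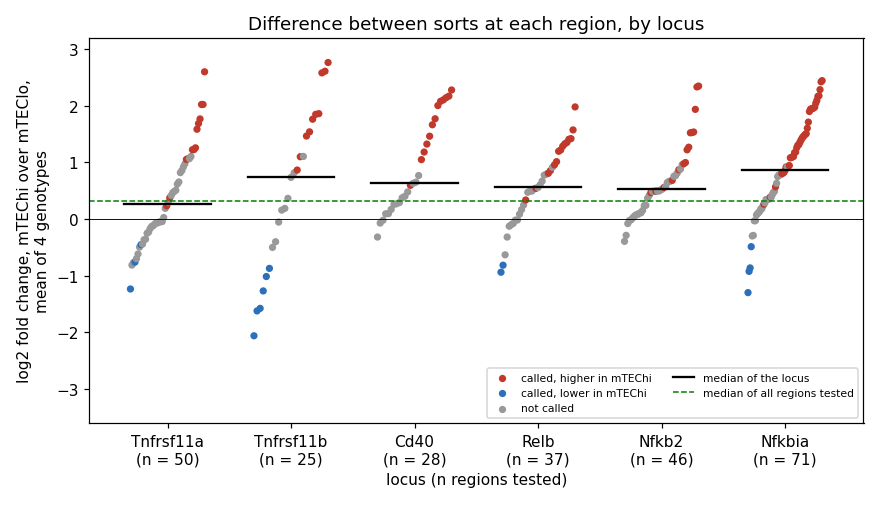
Log2 difference in signal of mTEChi minus mTEClo over the 4 genotypes for each member region tested, by locus, with called regions marked by direction. Points above 0 are higher in mTEChi. Of 28 regions at Cd40 and 46 at Nfkb2 none is called lower, and of 25 at Tnfrsf11b 6 are, against 10.6% of all regions tested.

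Summed over its regions, the signal of every locus was higher on average in mTEChi, and the libraries of the 2 sorts did not overlap except at Tnfrsf11b. Cd40 showed the widest gap, with sums of 701 to 1054 and a median of 833 over 8 mTEChi libraries, against 348 to 495 and a median of 458 over 8 mTEClo libraries, a ratio of means of 1.93. The ratio was 1.51 at Nfkbia, 1.42 at Relb, 1.35 at Nfkb2, 1.30 at Tnfrsf11a and 1.22 at Tnfrsf11b, against 1.19 over all regions of the table. These sums carry no test and, like the single values, they depend on the authors' scaling.

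**Figure D2:**
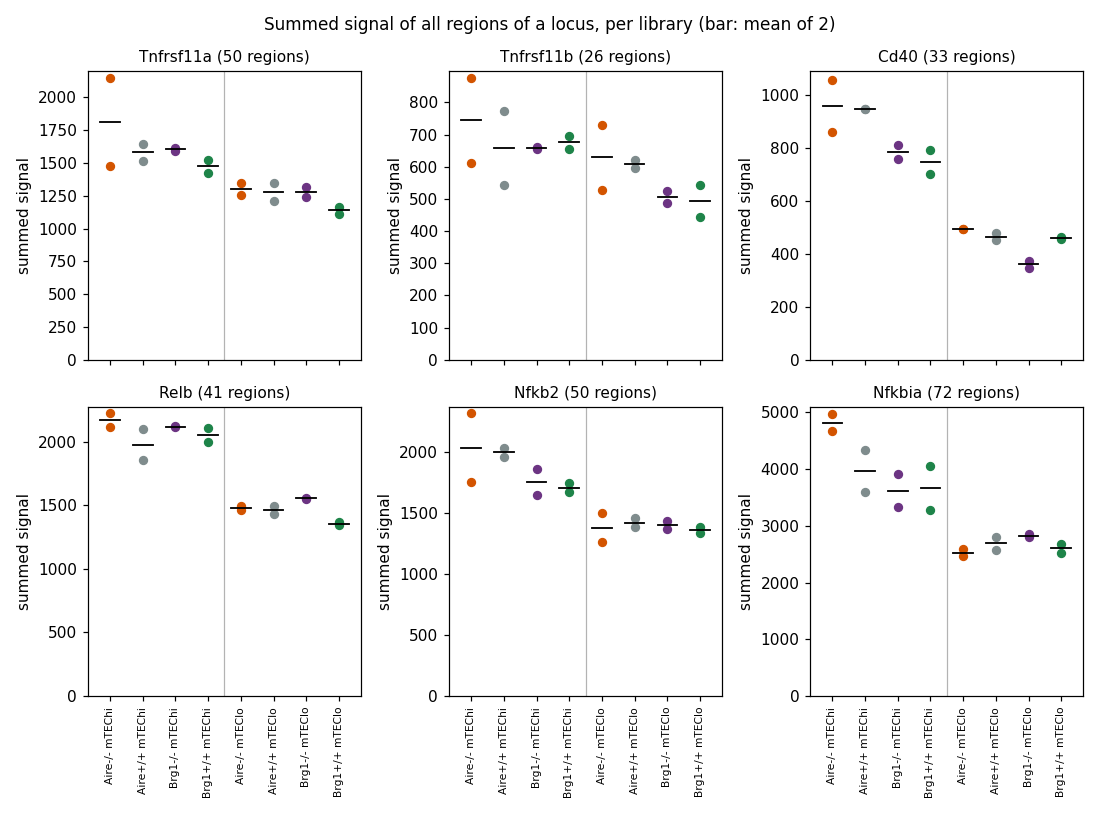
Signal summed over the member regions of each locus, 1 point per library, for the 8 groups, with mTEChi groups left of mTEClo groups. The mTEChi libraries lie above every mTEClo library at Tnfrsf11a, Cd40, Relb, Nfkb2 and Nfkbia, and the sorts overlap at Tnfrsf11b.

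At Tnfrsf11a, the RANK locus, 13 of 50 regions rose in mTEChi and 3 fell, and the median log2 difference was 0.27; with quantile normalization or cyclic loess the count was 9 higher and 7 lower, and the median turned to -0.09 or -0.04. The share of regions that rose, 26%, was close to the background of 27.1%, and 6% fell, against 10.6%. The window is therefore described by single regions, not as a whole. Its largest rise was at region 3, chr1:107644937-107645436. Signal there was 126 and 69.0 in Aire-/- mTEChi, 140 and 78.7 in Aire+/+ mTEChi, 91.0 and 67.3 in Brg1-/- mTEChi and 149 and 101 in Brg1+/+ mTEChi. In mTEClo it was 20.6 and 20.9 in Aire-/-, 14.9 and 16.4 in Aire+/+, 28.8 and 12.6 in Brg1-/- and 5.28 and 14.8 in Brg1+/+. Every mTEChi library stood above every mTEClo library, the lowest of them at 67.3 and the highest mTEClo library at 28.8. The log2 difference was 2.60 (SE 0.25, limma adjusted p = 1.38e-09), and the region was called higher in each of the 4 genotypes on its own.

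Region 18 of the RANK locus, chr1:107680747-107681246, had a median of 54.2 in mTEChi (22.9 to 79.2) and of 13.4 in mTEClo (7.7 to 15.6), and rose by 2.02. Regions 26 and 30 rose by 2.02 and 1.77, at lower signal than region 18, with medians of 36.8 and 19.9 in mTEChi against 11.5 and 8.4 in mTEClo. The strongest region of the window, region 43 at chr1:107763303-107763802, was open in both sorts. Its signal ran from 236 to 408 with a median of 295 in mTEChi, and from 212 to 328 with a median of 244 in mTEClo, so the sorts overlapped. The log2 difference of 0.24 (SE 0.08, adjusted p = 0.0243) was not called in 7 of the 16 fits that left out 1 library.

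At this locus 3 regions fell. Region 46, chr1:107777201-107777700, fell by 1.23 on the log2 scale, with 9.4 to 26.3 in mTEChi and 21.8 to 47.8 in mTEClo. Region 5 fell by 0.45, a call lost in 10 of those 16 fits. Region 7, chr1:107662165-107662664, fell by 0.76, and that value came from 1 genotype: the log2 difference was -0.22 in Aire-/-, -0.33 in Brg1-/- and -0.12 in Brg1+/+, none of them called, and -2.36 in Aire+/+ (adjusted p = 0.00301). The Aire interaction was not called (limma adjusted p = 0.959). The fall over the 4 genotypes was not called in 6 of the 16 fits without 1 library.

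**Figure D3:**
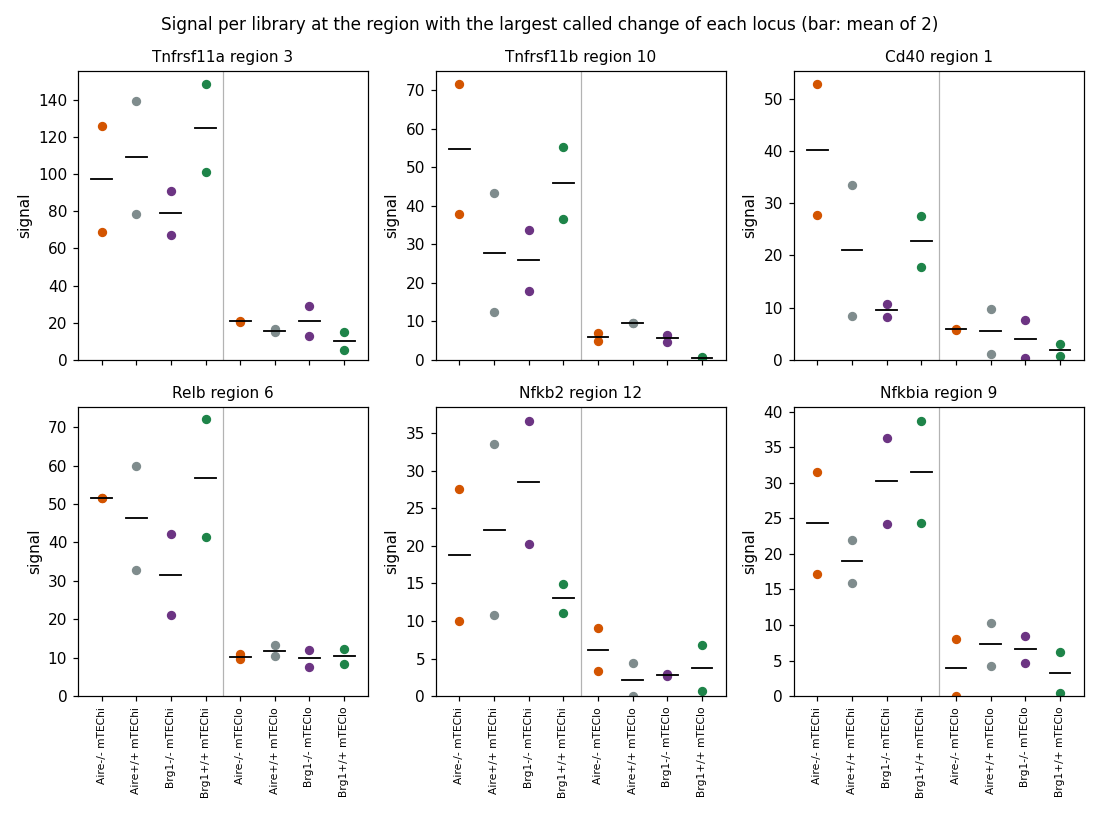
Signal in each of the 16 libraries at the region with the largest called rise in mTEChi at each locus, by group, with a bar at the mean of 2 libraries. At 5 of the 6 regions every mTEChi value lies above every mTEClo value, as at 8.82% of the 272 members and 5.15% of all regions tested. At Cd40 region 1 the lowest mTEChi value, 8.2, is below the highest mTEClo value, 9.8. The regions were picked by the size of the sort difference, so their separation follows in part from the choice.

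At Cd40, whose product receives the CD40 ligand of activated T cells, 13 of 28 regions rose in mTEChi and none fell. Of all regions tested 27.1% rose and 10.6% fell, and within 200 kb of the window 6.6% fell. The median log2 difference at Cd40 was 0.64. With quantile normalization 10 rose and with cyclic loess 12, and again none fell. The strongest region of the locus was among those that rose: region 17, chr2:164868548-164869047, had 38.5 to 150 with a median of 118 in mTEChi and 17.0 to 46.1 with a median of 29.9 in mTEClo. A single Brg1+/+ mTEChi library, at 38.5, fell within the mTEClo range, and the other 7 mTEChi libraries had at least 94.9. The log2 difference was 1.77 (SE 0.23, adjusted p = 2.11e-07).

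Region 10 of Cd40, chr2:164840461-164840960, rose by 2.10, with a median of 65.4 in mTEChi (22.5 to 111.3) and of 13.0 in mTEClo (9.6 to 22.9). Regions 1, 9 and 24 had the other large rises of the locus, by 2.28, 2.17 and 2.14, at medians of 22.7, 17.2 and 22.0 in mTEChi and of 4.4, 3.6 and 4.6 in mTEClo. At region 9 the Brg1+/+ mTEClo libraries were near the floor, at 0.37 and 0.62. Of the 13 regions, 3 in succession, regions 8 to 10, spanned 15.7 kb, with no count of such runs over all regions to set beside it. The Cd40 share of rising regions was 46.4%, against 27.1% of all regions tested and 29.2% of 106 regions within 200 kb on either side of the window.

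Tnfrsf11b, the locus of osteoprotegerin, moved in both directions: 10 of 25 regions rose in mTEChi and 6 fell, and with quantile normalization or cyclic loess 8 rose and 7 fell. The shares were 40% and 24%, against 27.1% and 10.6% of all regions tested, and within 200 kb of the window 45.5% of 22 regions rose and 4.55% fell. Region 10, chr15:54087600-54088099, had the largest rise of all members. Its signal was 71.5 and 38.0 in Aire-/- mTEChi, 43.3 and 12.4 in Aire+/+ mTEChi, 33.7 and 17.9 in Brg1-/- mTEChi and 55.4 and 36.7 in Brg1+/+ mTEChi. In mTEClo it was 6.95 and 5.01 in Aire-/-, 9.53 and 9.63 in Aire+/+, 4.71 and 6.52 in Brg1-/- and 0.37 and 0.62 in Brg1+/+. All mTEChi values exceeded all mTEClo values, and the log2 difference was 2.77 (SE 0.35, adjusted p = 2.12e-07). The Brg1+/+ difference of 4.95 rests on mTEClo values below 1.

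Regions 3 and 8 of Tnfrsf11b, chr15:54024744-54025243 and chr15:54077688-54078187, rose by 2.61 and 2.58 and were called in each of the 4 genotypes. Region 8 had a median of 67.0 in mTEChi (24.1 to 110.6) and of 10.8 in mTEClo (2.9 to 19.6). Of the 6 regions that fell, 5 lay in the high-coordinate part of the window. Region 20, chr15:54166781-54167280, had 2.0 to 26.3 with a median of 20.8 in mTEChi and 48.8 to 105.8 with a median of 63.2 in mTEClo, without overlap, and fell by 2.06 (SE 0.32, adjusted p = 5.75e-06). Region 17 fell by 1.62, and the neighbours 24 and 25 fell by 1.57 and 1.27. The strongest region of the window, region 22, also fell, by 1.01, although among single genotypes it was called in Aire-/- only, with a log2 difference of -2.60, against -0.25 in Brg1-/-, -0.74 in Aire+/+ and -0.46 in Brg1+/+. The Aire interaction there was not called (limma adjusted p = 0.959).

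**Figure D4:**
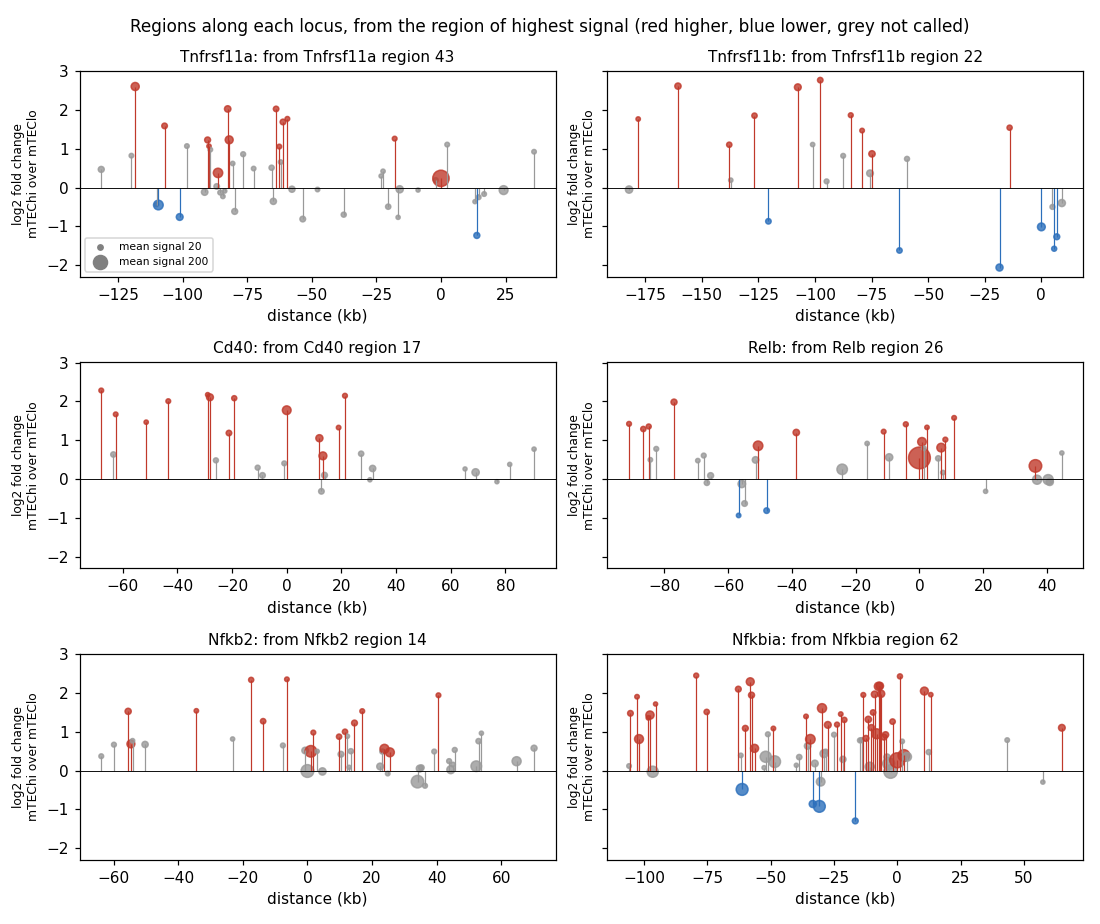
Log2 difference in signal of mTEChi minus mTEClo over the 4 genotypes against distance in kb from the region of highest mean signal, 1 point per region tested, sized by mean signal, and 1 panel per locus, with regions that rose in red, regions that fell in blue and the rest in grey. At Tnfrsf11b most regions that fell lie at the right, and at Nfkbia the 9 successive regions that rose lie within 6.1 kb. Such runs were not counted outside the loci shown.

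At Relb, which encodes the partner of p52, 15 of 37 regions rose in mTEChi and 2 fell, with a median log2 difference of 0.56; with either rescaling 10 rose and 3 fell. The shares were 40.5% and 5.41%, against 27.1% and 10.6% of all regions tested and 24.6% and 9.65% within 200 kb of the window. Region 26, chr7:20213830-20214329, had the highest signal of all members, and its rise was of similar size in the 4 genotypes. Signal was 529 and 625 in Aire-/- mTEChi, 517 and 656 in Aire+/+ mTEChi, 589 and 588 in Brg1-/- mTEChi and 576 and 633 in Brg1+/+ mTEChi. In mTEClo it was 383 and 374 in Aire-/-, 440 and 395 in Aire+/+, 416 and 414 in Brg1-/- and 418 and 385 in Brg1+/+. No mTEChi value fell within the mTEClo range. The log2 difference was 0.54 (SE 0.06, adjusted p = 4.5e-08) and lay between 0.48 and 0.60 in the 4 genotypes, in each of which it was called.

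Region 6 of Relb, chr7:20136888-20137387, had the largest rise of the locus, 1.98, with a median of 46.8 in mTEChi (21.1 to 72.1) and of 10.7 in mTEClo (7.6 to 13.2). Regions 35, 1 and 25 rose by 1.57, 1.42 and 1.41 at medians of 20.7, 16.6 and 21.1 in mTEChi and of 6.4, 5.5 and 10.2 in mTEClo. Region 25 was not called with quantile normalization (adjusted p = 0.0735) or with cyclic loess (adjusted p = 0.0614). Regions 11 and 16 fell by 0.94 and 0.81, and their calls were lost in 10 and in 9 of the 16 fits without 1 library.

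At Nfkb2, which encodes p100 and p52, 15 of 46 regions rose in mTEChi and none fell, and the median log2 difference was 0.52. The rising share of 32.6% was near the 27.1% of all regions tested and the 27.9% of regions within 200 kb of the window. Of all regions tested 10.6% fell, and of those within 200 kb of the window 8.2% did. With quantile normalization 9 rose and with cyclic loess 11, and none fell. The strongest region of this locus was not among those that rose. Region 14, chr19:46378874-46379373, had 144 and 174 in Aire-/- mTEChi, 198 and 186 in Aire+/+ mTEChi, 166 and 125 in Brg1-/- mTEChi and 162 and 156 in Brg1+/+ mTEChi. In mTEClo it had 171 and 158 in Aire-/-, 147 and 162 in Aire+/+, 160 and 199 in Brg1-/- and 178 and 140 in Brg1+/+. Values of the sorts overlapped almost wholly, with a log2 difference of -0.01 (SE 0.11, adjusted p = 0.945).

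The regions of Nfkb2 that rose most had far less signal than region 14, with mean signals of 10.65 to 18.18 against 164.06. Region 9, chr19:46361452-46361951, rose by 2.33 (SE 0.35, adjusted p = 3.54e-06), with a median of 31.1 in mTEChi (8.8 to 61.3) and of 5.6 in mTEClo (0.5 to 10.5). It was called in 3 genotypes and not in Brg1+/+, where the difference was 0.62, with 8.80 and 9.63 in mTEChi against 6.20 and 5.12 in mTEClo; the Brg1 interaction was not called (limma adjusted p = 0.513). Region 12 rose by 2.35, with a median of 17.6 in mTEChi and of 3.1 in mTEClo, where 1 library was listed at 0. Regions 41 and 7 rose by 1.94 and 1.54.

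Nfkbia, the locus of IkBa, had the largest share of rising regions, 40 of 71 or 56.3%, against 27.1% of all regions tested, while 4 fell, 5.63% against 10.6%, and its median log2 difference was 0.86. With quantile normalization 28 rose and with cyclic loess 29, and 4 fell with each. Within 200 kb on either side of the window 17 of 36 regions rose, 47.2%, so a high share was not limited to the window. The longest run of successive rising regions at any of the 6 loci was here: regions 49 to 57, 9 in all, over 6.1 kb at chr12:56585850-56591961. Runs were not counted outside these loci, so how common such a run is among all regions is unknown. In that run region 54, chr12:56589172-56589671, had a median of 62.9 in mTEChi (38.7 to 150.4) and of 14.8 in mTEClo (5.5 to 38.4) and rose by 2.18 (SE 0.28, adjusted p = 2.33e-07).

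Region 15 of Nfkbia, chr12:56538010-56538509, was called higher in each of the 4 genotypes. Its signal had a median of 86.9 in mTEChi (63.7 to 137.2) and of 19.2 in mTEClo (9.9 to 31.7), without overlap, and the log2 difference was 2.29 (SE 0.26, adjusted p = 2.25e-08). Regions 9 and 63 rose by 2.44 and 2.42 at lower signal, with medians of 24.3 and 34.2 in mTEChi and of 5.4 and 4.5 in mTEClo. At region 9, Aire-/- mTEClo replicate 2 was listed at 0 and Brg1+/+ mTEClo replicate 1 at 0.37. The strongest region, region 62 at chr12:56596055-56596554, differed little: 217.9 to 311.5 with a median of 237.9 in mTEChi, 176.2 to 234.9 with a median of 204.7 in mTEClo, and a log2 difference of 0.26 (SE 0.09, adjusted p = 0.02), a call lost in 3 of the 16 fits without 1 library.

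Strong regions at Nfkbia also fell. Region 30, chr12:56565310-56565809, had 62.7 to 130.1 with a median of 89.4 in mTEChi and 141.2 to 234.8 with a median of 180.7 in mTEClo. The sorts did not overlap, and the log2 difference was -0.92 (SE 0.14, adjusted p = 6.66e-06). Region 13 fell by 0.49, and regions 42 and 28 fell by 1.30 and 0.86. Among the 17 members at all loci with a mean signal of at least 100, 6 rose, 2 fell and 9 were not called, 35.3%, 11.8% and 52.9%, against 20.9%, 24.3% and 54.8% of all 9621 regions of that signal.

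Within single genotypes fewer regions passed the threshold. In Aire-/-, 52 members were called, 20.2%, against 11.4% of all regions; 48 were higher (18.7%) and 4 lower (1.56%), against 7.15% and 4.22% of all regions. In Aire+/+, 29 were called, 11.3%, against 8.79%, with 22 higher (8.56%) and 7 lower (2.72%), against 5.14% and 3.65%. In Brg1-/-, 23 were called, 8.95%, against 8.11%, with 21 higher (8.17%) and 2 lower (0.778%), against 6.61% and 1.5%. In Brg1+/+, 37 were called, 14.4%, against 13%, with 35 higher (13.6%) and 2 lower (0.778%), against 9.21% and 3.75%. Each count fell by more than 1.5 times when any 1 of the 4 libraries behind it was left out, to 21 to 28 in Aire-/-, 7 to 23 in Aire+/+, 8 to 11 in Brg1-/- and 14 to 19 in Brg1+/+, with 1 exception, the 23 in Aire+/+ without mTEChi replicate 2. The lowest count in Aire+/+, 7, was without mTEClo replicate 2. Differences between genotypes in these counts were not tested, and the interactions given below test single regions.

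In the wild types, the higher calls shared 10 regions, 45.5% of the 22 in Aire+/+ and 28.6% of the 35 in Brg1+/+, against 58.3% and 32.5% over all regions tested. The lower calls shared 1 region, 14.3% of the 7 in Aire+/+ and 50% of the 2 in Brg1+/+, against 48.4% and 47.1% over all regions tested, and no member region was called in opposite directions. Of the 257 regions tested, 5 were called higher in all 4 genotypes, 1.95% against 1.34% of all regions tested: Tnfrsf11a region 3, Tnfrsf11b regions 3 and 8, Relb region 26 and Nfkbia region 15, singled out after their values were seen. A further 10 were called higher in 3 genotypes, 3.89% against 1.91%. All 8 mTEChi libraries stood above all 8 mTEClo libraries at 24 of the 272 members, 8.82%, against 5.15% of all regions tested. They stood below them at 3 of the 272, 1.1%, against 1.93%. The 272 include members below the signal filter, while the regions tested do not.

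A few regions were called in 1 genotype and not over the 4. Tnfrsf11a region 12 had a log2 difference of 2.90 in Aire+/+ and Tnfrsf11a region 2 of 2.76 in Brg1-/-, Relb region 13 one of -1.92 in Aire+/+, and Nfkbia region 22 one of 0.88 in Aire-/-. Each of these calls was lost in at least 2 of 4 fits that left out 1 library.

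No member region was called between knockout and wild type in either sort. In Aire-/- against Aire+/+ mTEChi, 0 of 257 were called, against 0.0209% of all regions, and 25 members, 9.73%, had an unadjusted limma p under 0.05, against 10.2% of all regions. In Aire-/- against Aire+/+ mTEClo, 0 members and 0% of all regions were called, and the unadjusted p was under 0.05 at 14 members, 5.45%, against 2.5%. The Brg1-/- against Brg1+/+ contrast gave 0 members in mTEChi, against 0.0257% of all regions, with 16 members (6.23%) at an unadjusted p under 0.05, against 10.7%. In mTEClo that contrast gave 0 members, against 0.000444%, with 19 members (7.39%) against 6.15%. A missing call does not show that these loci were alike in knockout and wild type.

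The medians were small. Over the members the median log2 difference of Aire-/- minus Aire+/+ was 0.22 in mTEChi and 0.01 in mTEClo, against 0.00 over all regions in each sort. That of Brg1-/- minus Brg1+/+ was 0.05 in mTEChi, against 0.22 over all regions, and 0.12 in mTEClo, against 0.05. At Nfkbia the summed signal of Aire-/- mTEChi was 4814 ± 216, against 3959 ± 525 in Aire+/+ mTEChi (SD, n = 2 each), and the single libraries did not overlap, at 4661 and 4967 against 3587 and 4330. Those of Relb did not overlap either, at 2115 and 2230 against 1858 and 2097. At Tnfrsf11a, Tnfrsf11b, Cd40 and Nfkb2 the libraries of these mTEChi groups overlapped. At Cd40 the sums were 361 ± 19 in Brg1-/- mTEClo and 458 ± 6 in Brg1+/+ mTEClo (SD, n = 2 each). Other loci went the opposite way between these mTEClo groups, without overlap of single libraries. The sums were 1555 ± 5 against 1357 ± 17 at Relb, 1277 ± 53 against 1140 ± 35 at Tnfrsf11a and 2823 ± 40 against 2602 ± 108 at Nfkbia. At Nfkb2 and Tnfrsf11b the libraries of these groups overlapped. Summed over all regions of the table, the Aire-/- and Aire+/+ mTEChi libraries overlapped, and so did the Brg1-/- and Brg1+/+ mTEClo libraries. How often sums of other windows fail to overlap was not computed. All these pairs of sums were singled out after their values were seen, and none was tested.

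**Figure D5:**
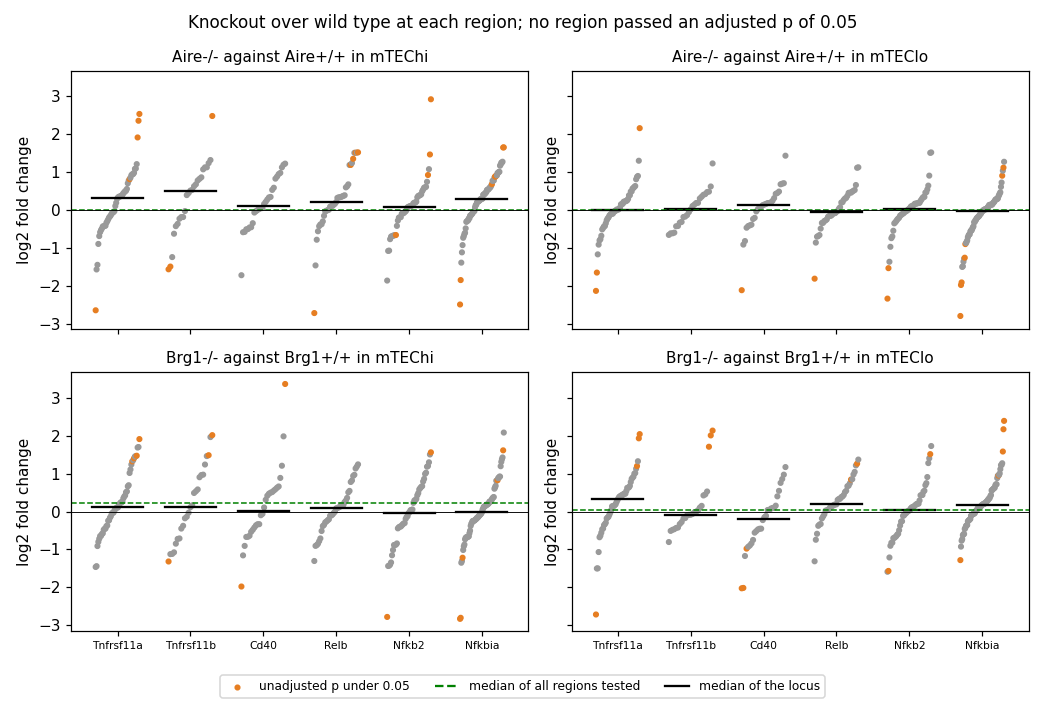
Log2 difference in signal of knockout minus wild type for each member region tested, by locus, for the Aire and Brg1 contrasts in mTEChi and mTEClo. Points spread on both sides of 0 at each locus, and none passed the threshold.

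The member nearest to the threshold was Tnfrsf11a region 7. In mTEChi its signal was 59.0 and 29.8 in Aire-/- and 8.29 and 4.92 in Aire+/+, a log2 difference of 2.54 (SE 0.51, adjusted p = 0.0623). The Brg1 libraries of that sort had 53.5 and 24.3 in Brg1-/- and 41.9 and 43.3 in Brg1+/+, so the Aire+/+ pair was the low one. Without Aire+/+ mTEChi replicate 1 the difference was called (2.86, adjusted p = 0.0143). Without Aire+/+ mTEChi replicate 2, Nfkb2 region 50 at chr19:46449058-46449557 was called instead (4.33, adjusted p = 0.00801), where the signal was 53.3 and 65.9 in Aire-/- and 2.00 and 20.1 in Aire+/+.

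The other comparisons had these members with the smallest unadjusted p. Nfkbia region 68 had 9.09 and 1.25 in Aire-/- mTEClo and 21.7 and 46.9 in Aire+/+ mTEClo, a difference of -2.79 (SE 0.74, adjusted p = 1). Cd40 region 31 had 21.1 and 31.3 in Brg1-/- mTEChi and 1.27 and 1.97 in Brg1+/+ mTEChi, a difference of 3.36 (SE 0.90, adjusted p = 0.173). Nfkbia region 67 had 46.1 and 33.2 in Brg1-/- mTEClo and 7.91 and 5.56 in Brg1+/+ mTEClo, a difference of 2.39 (SE 0.51, adjusted p = 0.267). Its values in mTEChi were 38.2 to 116.2 over all 4 genotypes. None of these regions passed the threshold. The groups compared did not overlap at any of them, but the regions were picked by their p, so the lack of overlap adds nothing.

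Whether a knockout changed the difference between the sorts was tested as an interaction. It was called at 0 members for Aire-/-, against 0.000444% of all regions, with 17 members (6.61%) at an unadjusted p under 0.05 against 5.15%. For Brg1-/- it was called at 0 members and at 0% of all regions, with 15 members (5.84%) against 7.09%.

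Regions with the most similar pattern over the 8 group means were found across loci, as a description with no test. Tnfrsf11a region 3 was most like Relb region 6 (Pearson r = 0.959), Nfkbia region 15 (0.957) and Cd40 region 24 (0.955). The closest to Tnfrsf11b region 10 was Nfkbia region 14 (0.974), to Cd40 region 1 Nfkbia region 16 (0.989), to Relb region 6 Tnfrsf11a region 19 (0.977), to Nfkb2 region 12 Nfkb2 region 41 (0.956) and to Nfkbia region 9 Relb region 26 (0.964). Each starting region was the one with the largest called sort difference of its locus, so a pattern split by sort was built in. Likeness to regions outside the loci was not computed. All these regions share the same 16 libraries and were picked as the most alike of 272, so the values describe likeness only.

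The windows end where coordinates were set and not at a change in signal. The last Relb region inside had a mean signal of 8.7 and the next one outside 98.2, and at the high end of the Nfkb2 window the values were 27.8 inside and 69.1 outside. Regions were densest at Nfkbia, 3.6 per 10 kb, and Nfkb2, 3.57, and sparsest at Tnfrsf11b, 1.3. By gene order in RefSeq on GRCm38, Tnfrsf11b lies between Samd12 and Colec10, Cd40 between Ncoa5 and Cdh22, and Nfkbia between Psma6 and Aldoart2. A region in a window may therefore belong to a neighbouring gene, and the place of the regions relative to exons, introns and promoters was not analysed here.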

How the data were processed

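Per the submitters' processing notes, Bowtie2, MACS2 and the mm9 build were used; versions, the definition of the regions, the Tn5 offset and the scaling are not given in the sources used here. A single deposited table holds the authors' signal per region (250313 regions) and library (16 libraries). The values are not whole counts, so no count model was used. Starts were taken as counted from 0 and are printed counted from 1.

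With limma 3.58.1 in R 4.3.3, 1 mean for each of 8 groups was fitted to log2(signal + 1) of the 225281 regions at or above the 10th percentile of mean signal (7.48), with 8 residual degrees of freedom and trend and robust moderation. There were 11 comparisons, two-sided, with Benjamini-Hochberg adjusted p under 0.05 over all regions. The procedure was tested on simulated data for the sort contrast over all genotypes only, with changes placed in regions at or above the median signal. That test did not cover the knockout and interaction comparisons or changes in weaker regions. Of the 15 members left out, none entered a test, although the sums hold all 272.

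Regions named per locus were the one with the highest mean signal, up to 4 called over the 4 genotypes with the largest change in each direction, up to 2 called in 1 genotype only, and the member with the smallest p per knockout contrast. Members, windows and lists were chosen with earlier results of these data known. Replicate numbers do not pair the libraries by the labels. Alternatives were other pseudocounts, filters and normalizations, fewer libraries in the fit, quality weights, a replicate block and leaving out each library. The gene and promoter tables are of GRCm38.p6, so regions were not linked to genes.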

Additional observations from a re-analysis of the deposited data

Results flagged for a closer look

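At 12 of the 50 named regions, the knockout libraries lay on opposite sides of their wild type in the 2 sorts in every library. This was so for 1 knockout or the other at 14.8% of the 257 members tested, against 11.3% of all regions tested. Among the 50 named it was so at 24%. Some of these were named for the smallest unadjusted p of a knockout contrast, or for a sort call in 1 genotype only. Their share is therefore in part built in. No interaction of these 12 passed limma's threshold over all regions: the adjusted p was 0.513 to 0.975. Values below are the log2 effect of the knockout in mTEChi minus that in mTEClo.

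At the receptor loci, Cd40 region 31, chr2:164945448-164945947, had 3.84 (3.835, SE 1.27, unadjusted p = 0.00493 and adjusted p = 0.535, limma) for Brg1-/-. Its signal was 21.1 and 31.3 in Brg1-/- mTEChi against 1.27 and 1.97 in Brg1+/+ mTEChi, and 3.59 and 4.82 in Brg1-/- mTEClo against 5.45 and 6.96 in Brg1+/+ mTEClo. Tnfrsf11a region 12 had -4.80 for Aire-/- (-4.803, SE 1.28, limma adjusted p = 0.959), with 9.13 and 1.84 in Aire-/- mTEChi against 27.6 and 38.4 in Aire+/+ mTEChi, and 17.9 and 20.2 in Aire-/- mTEClo against 8.02 and 1.22 in Aire+/+ mTEClo. Tnfrsf11a region 2 had 1.77 (1.766) for Aire-/-.

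At Nfkb2, region 9 had 3.13 (3.128, SE 1.00, limma adjusted p = 0.513) for Brg1-/-, with 26.2 and 32.4 in Brg1-/- mTEChi against 8.80 and 9.63 in Brg1+/+ mTEChi, and 0.47 and 2.42 in Brg1-/- mTEClo against 6.20 and 5.12 in Brg1+/+ mTEClo. Region 7 of that locus had -2.29 (-2.292) for Brg1-/-. For Brg1-/-, Tnfrsf11b regions 10 and 13 had -2.98 (-2.982) and -2.78 (-2.785), and Nfkbia regions 62, 54 and 42 had -0.24 (-0.241), 1.96 (1.959) and 1.197. For Aire-/-, Relb region 11 had 0.93 (0.925) and Nfkbia region 67 had -2.04 (-2.044).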

How the results depend on the processing

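The count of 121 members called between the sorts over the 4 genotypes was 106 to 127 when 1 library was left out. The smaller counts within a genotype moved more. Quality weights gave 16 in Aire+/+, against 29. Quantile normalization gave 17 in Brg1+/+ and 9 in Brg1-/-, and cyclic loess gave 24 and 9, against 37 and 23. Leaving out 1 library gave 21 to 28 in Aire-/-, 7 to 23 in Aire+/+, 8 to 11 in Brg1-/- and 14 to 19 in Brg1+/+, 0 to 1 for Aire-/- against Aire+/+ in mTEChi, and 0 in the other knockout and interaction comparisons. Leaving out a library leaves 1 in its group, which is assumed to vary like the other groups; the cause of the other shifts was not tested. Nfkb2 region 14, never called, had a log2 difference of 0.032 (0.03) with cyclic loess and -0.062 to 0.039 without single libraries, against -0.01. The other 50 named results kept their direction under every alternative run, and 38 of 51 kept both direction and call under all of them.

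Same-numbered libraries did not deviate together: over 28 pairs of groups the correlation of deviations was -0.0176 to 0.034. With the replicate block 121 members were called over the 4 genotypes, and counts within a genotype were 51 in Aire-/-, 28 in Aire+/+, 21 in Brg1-/- and 36 in Brg1+/+; the block changed the call of no named region. Unknown depth leaves the error of weak regions, with signal below about 15.5, unmeasured beyond 2 libraries per group.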
